A study of Mus musculus with 8 samples.

Results

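The genes described here encode the enzymes that make and hydrolyze the endocannabinoids 2-arachidonoylglycerol (2-AG) and anandamide, together with both cannabinoid receptors. They were taken by gene symbol from the deposited count table, which lists 32849 symbols, and all 10 were found. Whole esophagi of healthy MGL KO and WT mice were compared, with 4 libraries in each group and no treatment in either. MGL KO mice lack monoacylglycerol lipase (MGL, encoded by Mgll) and were bred in-house with WT littermates, according to the study's methods. The deletion of MGL was global. Adult mice of both sexes were used in the study, and the allele and the sex and age of each sequenced mouse are not given in the sources used here. RNA came from frozen tissue and was selected for poly(A) tails, so epithelium, muscle, stroma and immune cells were measured together.

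Endocannabinoids are lipids that cells make on demand from membrane phospholipids. Diacylglycerol lipases release 2-AG from diacylglycerol, and MGL, with a smaller part played by the alpha/beta-hydrolase domain enzymes ABHD6 and ABHD12, cleaves it to arachidonic acid and glycerol. Anandamide and related N-acylethanolamines are released by the phospholipase D NAPE-PLD and broken down by FAAH and by the lysosomal amidase NAAA. Both lipids act on the cannabinoid receptors, of which CB1 (Cnr1) is known mainly from neurons and CB2 (Cnr2) mainly from immune cells.

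Of the 10 genes, Mgll was the 1 whose expression differed between the genotypes, and its level in MGL KO esophagi was 16.9% of that in WT. The other 9 genes cover 2-AG synthesis, the alternative 2-AG hydrolases, anandamide turnover and the receptors. Their ranges of TMM-scaled values overlapped between the 2 groups, and none passed the test. Values are normalized CPM, the read counts divided by TMM-corrected library size on the usual CPM scale. Log2 fold changes give MGL KO relative to WT in the quasi-likelihood test of edgeR, with Benjamini-Hochberg adjusted p-values over the 14864 genes tested. All 10 genes passed the filter on low counts. Across all tested genes, 0.0471% had an adjusted p under 0.05 (0.0269% lower and 0.0202% higher in MGL KO), and in 6.02% the ranges of the groups did not overlap (3.3% with MGL KO below and 2.72% with MGL KO above WT). Both criteria were met by 1 of the 10 genes, Mgll, which was lower, and by none in the other direction. The median log2 fold change of the other 9 was 0.13, and that of all tested genes was 0.02.

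**Figure D1:**
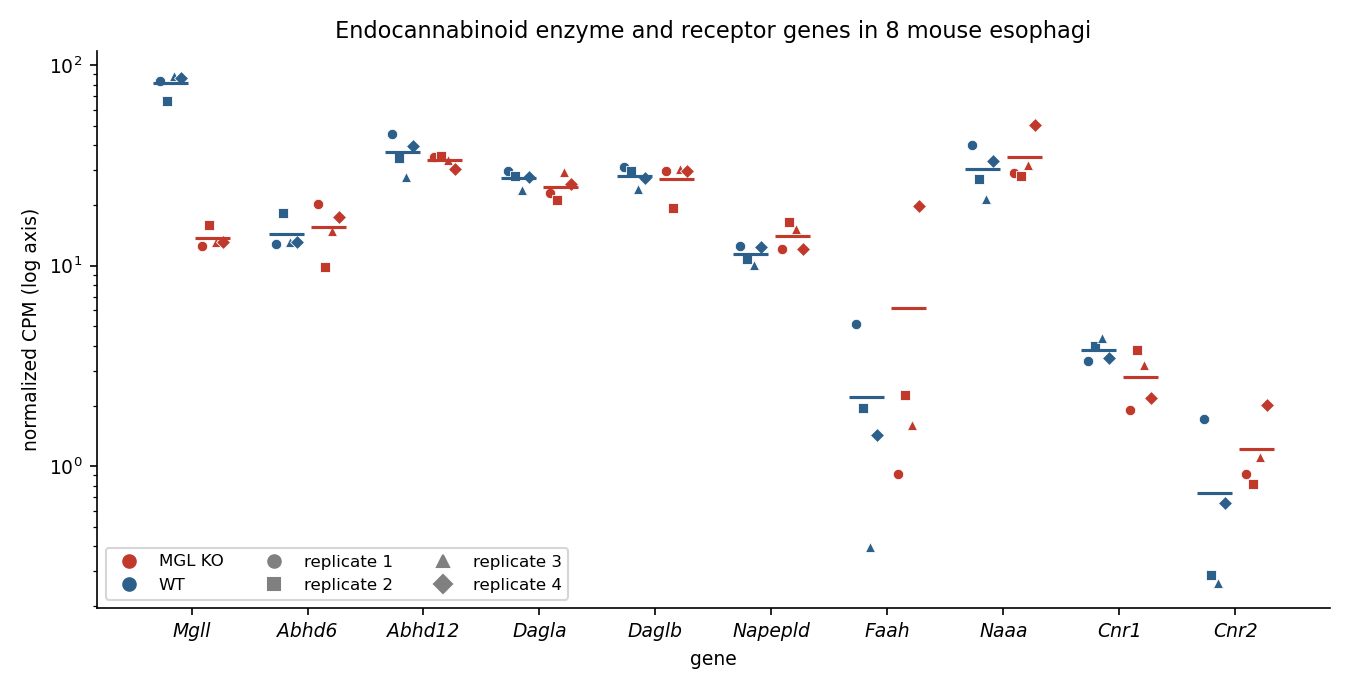
Normalized CPM (log axis) of the 10 genes in the 4 WT (blue) and 4 MGL KO (red) libraries; each symbol is 1 library, its shape the replicate number, and horizontal lines are group means. The groups are apart for Mgll and overlap for each of the other genes, with single libraries far above the rest for Faah.

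The libraries held between 13479069 and 17090152 counts, so that 3 counts, the limit set by a count of 0, corresponded to 0.167 to 0.271 normalized CPM (counting error only). Summed squamous epithelial and skeletal muscle markers were abundant in every library, although the squamous marker Ivl was at most 0.80 normalized CPM. The sum of 8 differentiated squamous markers, keratins and cornified envelope genes, lay between 2180 and 13483 normalized CPM in MGL KO and between 3021 and 15021 in WT, and was lowest in MGL KO replicate 2. Skeletal muscle markers (9 genes) summed to between 35018 and 88189 normalized CPM in MGL KO, highest in replicate 2, and between 45968 and 74237 in WT. In MGL KO replicate 4, 5 airway secretory markers summed to 7711 normalized CPM, against at most 50.9 in any other library. Markers of B and plasma cells (6 genes) reached 828.3 in WT replicate 1 and 218.4 in MGL KO replicate 4, and stayed at or below 30.004 elsewhere. The 6 airway ciliated markers summed to between 808.5 and 1191 in MGL KO and between 413.1 and 725.9 in WT, without overlap, and most of this was Tppp3 (768.0 to 885.6 against 405.3 to 712.3). Without Tppp3, a choice made after the values were seen, the sum was 423.2 in MGL KO replicate 4 and at most 14.7 elsewhere. Macrophage markers (6 genes) summed to between 132.0 and 166.4 in MGL KO and between 157.1 and 479.1 in WT, where replicate 1 stood above the others (at most 277.3). The log2 fold changes of all 6 were negative at an unadjusted p under 0.05, which 8.65% of all tested genes reached, from Adgre1 (log2 fold change -1.51) to Mrc1 (-0.64). None reached an adjusted p under 0.05 in edgeR. The groups of C1qa (-0.83) nearly touched without overlap, at 49.70 normalized CPM in MGL KO replicate 3 and 49.77 in WT replicate 3. Without WT replicate 1, a setting added after the data were seen, the 6 log2 fold changes lay between -0.68 (Adgre1) and -0.36 (Cd68), with C1qa at -0.49, and 3 of the 6 reached an unadjusted p under 0.05. Of the 5 eosinophil markers, Epx had 0 counts in all libraries, and the list summed to at most 1.97 normalized CPM.

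Mgll lies on the forward strand of chromosome 6 (GRCm39, chr6:88652108-88805342), where GENCODE annotates 25 transcripts. The deposited counts pool reads from all of these and do not show which exons the reads fall on. The bases before a RefSeq start of Mgll are shown because 22 of the 25 transcripts begin within 1 kb after that start. The table holds 2 RefSeq starts for Mgll, and the first of them, used here, lies 49.3 kb after the first annotated start of the gene. The stretch printed, chr6:88701144-88701291 (GRCm39, forward strand), ends where another annotated transcript begins.

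Mgll promoter: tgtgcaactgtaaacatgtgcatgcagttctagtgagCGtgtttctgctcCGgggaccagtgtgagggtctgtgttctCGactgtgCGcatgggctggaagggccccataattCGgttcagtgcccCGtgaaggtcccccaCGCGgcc

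Capitals mark its 8 CpG dinucleotides, searched as the letters CG, which read the same on both strands. The full 250 bases before the first RefSeq start held 23 CpG, and those before the second held 40. The median over the 32851 RefSeq stretches of 250 bases was 6, with fewer CpG than the first Mgll stretch in 86.7% of them and fewer than the second in 98.7%.

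Expression of Mgll in the MGL KO libraries was 12.6, 16.0, 13.1 and 13.2 normalized CPM for replicates 1 to 4, from 177 to 234 counts per library. In WT replicates 1 to 4 it was 83.3, 66.6, 88.3 and 86.7. The highest MGL KO library thus stayed far below the lowest WT library, which was replicate 2. The means were 13.7 ± 1.54 (SD, n = 4) in MGL KO and 81.2 ± 9.97 (SD, n = 4) in WT esophagi, a log2 fold change of -2.57 (95% interval -2.86 to -2.28, edgeR adjusted p = 0.000133). A two-sided exact permutation test of the means gave p = 0.0286, the smallest that 4 libraries against 4 allow. The remaining reads were well above the counting limit in all MGL KO libraries. No listed gene shares exon bases with Mgll, although a long noncoding gene on the opposite strand that is not in the table, Gm26588, shares 496.

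Within the groups, Mgll varied against the squamous markers. WT replicate 2 had the lowest Mgll and the highest squamous sum of its group, and MGL KO replicate 2 the highest Mgll and the lowest squamous sum. The highest Mgll in MGL KO replicate 2 rests on its TMM factor of 0.82, the lowest of the series. Without that factor, its 177 of 13479069 counts were a lower share than the 234 of 16300482 in MGL KO replicate 4. Over the 8 libraries, the deviations of log2 Mgll from the group means correlated with those of the log2 squamous sum at r = -0.91. The correlation with skeletal muscle markers was positive (r = 0.51). These are descriptions over 8 libraries, whose values share the same library scaling, and the correlations were not examined without the TMM factors. In whole tissue, fewer cells of a type and less RNA per cell cannot be told apart. Fitting the mean log2 CPM of the squamous markers as a covariate left the log2 fold change of Mgll at -2.55.

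Abhd6 encodes a membrane-bound serine hydrolase that cleaves 2-AG and other monoacylglycerols. Its level was 20.3, 9.84, 14.9 and 17.5 normalized CPM in MGL KO replicates 1 to 4 and 12.8, 18.3, 13.1 and 13.1 in WT replicates 1 to 4. The MGL KO values spanned the whole WT range, with the lowest value in the library with the least squamous signal. The log2 fold change was 0.13 (95% interval -0.39 to 0.65, edgeR adjusted p = 0.88). Without MGL KO replicate 1, its highest library, the value was -0.02. Abhd6 followed the squamous markers within the groups (r = 0.88 over 8 libraries), the opposite of Mgll, and the deviations of both genes correlated at r = -0.90. These correlations use TMM-scaled values, with a factor of 0.82 in MGL KO replicate 2, and were not examined without that scaling. With the squamous markers as a covariate, the log2 fold change of Abhd6 was 0.07.

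Abhd12, a lipase best known for hydrolyzing lysophosphatidylserine, was the most evenly expressed of these genes in the knockout. In MGL KO it ranged from 30.5 to 35.2 normalized CPM (33.5 ± 2.10, SD, n = 4) and in WT from 27.8 to 45.3 (36.8 ± 7.45, SD, n = 4). Its log2 fold change was -0.13 with a 95% interval from -0.47 to 0.20 (edgeR adjusted p = 0.795). The highest Abhd12 value was in WT replicate 1, the library with the highest macrophage signal, and the within-group correlation with macrophage markers was 0.89. Without WT replicate 1 the log2 fold change was -0.02, and without WT replicate 3 it was -0.24. The part of macrophages in the Abhd12 values was not tested.

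Levels were compared between genes per kb of the canonical transcript, which ranges from 2.00 kb for Abhd12 to 6.43 kb for Cnr1. On this scale, Mgll was the highest of the 10 genes in WT, at 22.1 ± 2.71 normalized CPM per kb (SD, n = 4). It was followed by Abhd12 at 18.4 ± 3.73 and Naaa at 11.6 ± 3.00. The ranges of these 3 overlapped from one to the next. Naaa lay above Abhd6 (5.93 ± 1.11) without overlap, whereas Abhd6, Daglb (5.92 ± 0.64) and Dagla (4.77 ± 0.42) overlapped in this order. Napepld (2.80 ± 0.30) stood below Dagla and above Cnr1 (0.59 ± 0.07) without overlap in either direction, and Cnr1, Faah (0.54 ± 0.50) and Cnr2 (0.19 ± 0.18) overlapped at the bottom.

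In MGL KO esophagi, Mgll moved from the first to the sixth place, at 3.73 ± 0.42 normalized CPM per kb (SD, n = 4), between Dagla (4.34 ± 0.59) and Napepld (3.43 ± 0.54), and its range overlapped those of both. This place, and the Mgll shares given below, assume the full transcript. The allele is not given, and the counts do not show which exons the remaining reads fall on. Abhd12 led the order at 16.8 ± 1.05, followed by Naaa at 13.3 ± 4.02. When the length was instead the union of all annotated exons, which is 13.6 kb for Abhd12, Mgll was still first in WT, while Abhd12 dropped to the third place in WT and to the second in MGL KO, and Mgll was at the fifth place in MGL KO, so these places depend on the transcript length assumed.

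**Figure D2:**
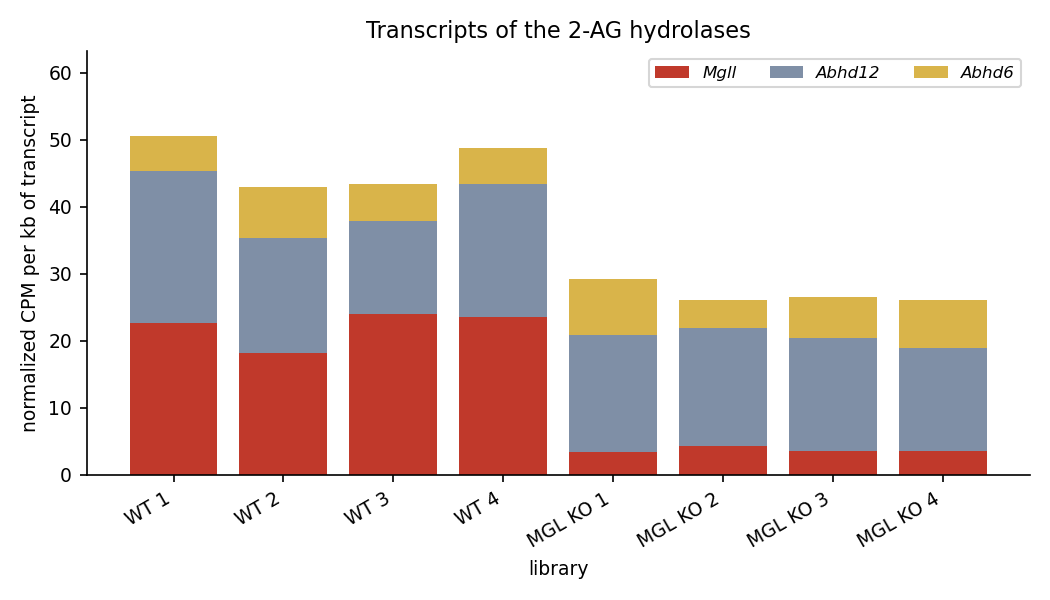
Normalized CPM per kb of canonical transcript of Mgll, Abhd12 and Abhd6, stacked for each of the 8 libraries. The sum lies between 42.9 and 50.6 in WT and between 26.0 and 29.2 in MGL KO, and the difference is in the Mgll segment.

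The question whether another 2-AG hydrolase was more abundant in the absence of MGL was addressed with sums and ratios within libraries. Mgll made up 44.8%, 42.2%, 55.4% and 48.3% of the summed Mgll, Abhd6 and Abhd12 transcripts in WT replicates 1 to 4, and 11.7%, 16.7%, 13.4% and 13.7% in MGL KO replicates 1 to 4. The share dropped by 33.8 percentage points on average (two-sided exact permutation test, p = 0.0286, and 0.0953 after adjustment over the 10 sums and ratios examined). Its numerator is the targeted gene, so this drop does not answer the question about the other hydrolases. The summed transcripts of the 3 hydrolases fell from 46.4 ± 3.87 to 27.0 ± 1.497 normalized CPM per kb (SD, n = 4) with the same exact p-values, and this sum contains the targeted gene. Abhd6 and Abhd12 together were at 24.3 ± 3.61 in WT and 23.2 ± 1.77 in MGL KO (n = 4, exact permutation p = 0.686), so no higher level of these hydrolases was detected.

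Dagla and Daglb encode the diacylglycerol lipases that form 2-AG, the first known mainly for the nervous system and the second for immune and other peripheral cells. Dagla was at 23.1, 21.4, 29.2 and 25.5 normalized CPM in MGL KO replicates 1 to 4, and between 23.9 and 29.6 in WT. The groups covered nearly the same range, and the log2 fold change was -0.13 (95% interval -0.42 to 0.15, edgeR adjusted p = 0.767). Daglb was between 29.5 and 30.3 in 3 of the MGL KO libraries, at 19.3 in MGL KO replicate 2, and in WT it ranged from 24.1 to 31.1. Its log2 fold change of -0.04 (95% interval -0.41 to 0.32, edgeR adjusted p = 0.943) became 0.09 without that library.

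MGL KO replicate 2 also had the lowest sums of differentiated and basal squamous markers and the highest sum of skeletal muscle markers in the series. Daglb followed the basal squamous list (r = 0.91) and went against skeletal muscle (r = -0.83), and Dagla followed the fibroblast list (r = 0.87), all as within-group deviations over 8 libraries. A total of 2682 exon bases of Daglb overlap those of Rac1 on the opposite strand. The use of strand in counting is not given in the sources used here, so reads of both genes may be mixed in the Daglb value. The ratio of Dagla and Daglb to Abhd6 and Abhd12, on a log2 scale and per kb, was -1.22 ± 0.22 in MGL KO and -1.18 ± 0.09 in WT (SD, n = 4, two-sided exact permutation p = 0.771). With Mgll added to the hydrolases it was -1.43 ± 0.24 against -2.12 ± 0.13 (n = 4, exact permutation p = 0.0286, adjusted 0.0953), and the term added is the targeted gene.

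**Figure D3:**
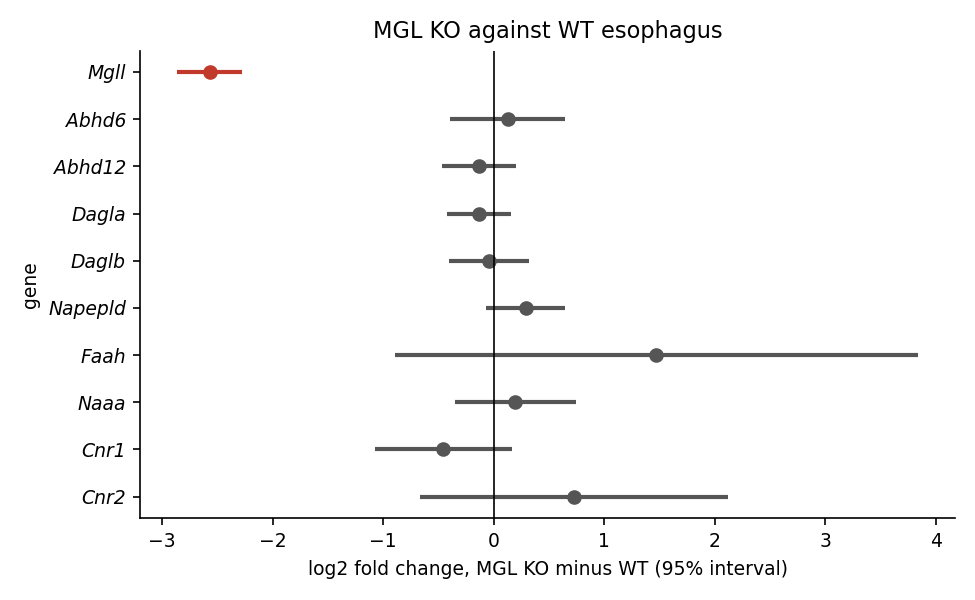
Log2 fold change of each gene, MGL KO minus WT, with its 95% interval from edgeR's quasi-likelihood fit. Mgll at -2.57 is the only interval that does not include 0, and Faah and Cnr2 have the widest intervals.

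Napepld, which encodes the enzyme releasing anandamide from N-acyl phosphatidylethanolamine, was at 12.2, 16.5, 15.3 and 12.1 normalized CPM in MGL KO replicates 1 to 4 and at 12.5, 10.8, 10.1 and 12.5 in WT replicates 1 to 4. A pair of MGL KO libraries lay above all WT libraries and the other pair within their range. The log2 fold change of 0.29 (95% interval -0.07 to 0.65) did not pass the test (edgeR adjusted p = 0.638, unadjusted p = 0.0975). Napepld shares 367 exon bases with Armc10 on the opposite strand, so this value carries the same uncertainty about strand.

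Faah, the main anandamide hydrolase of most mouse tissues, was low in the esophagus. Its SD was 148.7% of the mean in MGL KO, the highest of the 10 genes, and 91.8% in WT, where Cnr2 was at 94.0%. It was at 0.92, 2.26, 1.60 and 19.95 normalized CPM in MGL KO replicates 1 to 4 and at 5.13, 1.94, 0.39 and 1.43 in WT replicates 1 to 4. The highest value, from 355 counts, was in MGL KO replicate 4, the library with airway markers, and the second highest in WT replicate 1, the library with the most B and plasma cell signal. Within the groups, Faah correlated at r = 0.61 with airway secretory, 0.79 with B and plasma cell and 0.90 with T cell markers. With skeletal muscle and neuron markers r was -0.75 and -0.78, and the part of any cell type was not tested. The log2 fold change of 1.47 had a 95% interval from -0.89 to 3.84 (edgeR adjusted p = 0.698). Without MGL KO replicate 4 it was -0.51, so this library sets the direction. In limma-voom with quality weights the log2 fold change was 0.00.

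Naaa, whose lysosomal product prefers palmitoylethanolamide over anandamide, was expressed in every library. It was at 29.0, 28.2, 31.6 and 50.5 normalized CPM in MGL KO replicates 1 to 4, and at 39.8, 27.0, 21.6 and 33.2 in WT replicates 1 to 4. MGL KO replicate 4 and WT replicate 1 were again the highest of their groups. Its log2 fold change was 0.20 (95% interval -0.35 to 0.74, edgeR adjusted p = 0.814), and -0.04 without MGL KO replicate 4. The deviations of Naaa and Faah correlated at r = 0.92, the highest value between any 2 of the 10 genes.

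The log2 ratio of Napepld to Faah and Naaa per kb was -2.04 ± 0.68 in MGL KO and -2.08 ± 0.28 in WT (SD, n = 4, two-sided exact permutation p = 0.914). The MGL KO value ranged from -3.02 in replicate 4 to -1.48 in replicate 2 and enclosed all WT values.

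Cnr1 expression was 1.90, 3.79, 3.21 and 2.19 normalized CPM in MGL KO replicates 1 to 4, from 31 to 52 counts, and 3.35, 4.00, 4.34 and 3.46 in WT replicates 1 to 4, from 53 to 70 counts. All but 1 of the MGL KO libraries lay below every WT library, and the exception, replicate 2, lay within the WT range. The log2 fold change was -0.45 (95% interval -1.07 to 0.16), and the adjusted p of 0.665 (edgeR) did not pass 0.05. The overlap depends on the TMM factors, 0.82 in MGL KO replicate 2. Per total count, every MGL KO library lay below every WT library. The share of all genes without overlap on that scale was not determined. With library size alone, the log2 fold change was -0.52 (edgeR adjusted p = 0.775). Cnr1 was higher in libraries with more skeletal muscle signal (r = 0.73), and lower in those with more basal squamous signal (r = -0.74), again within groups over 8 libraries. A long noncoding gene on the opposite strand, Gm33105, shares 203 exon bases with Cnr1 and is not in the table.

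Cnr2 was the lowest of the 10 genes. It was at 0.92, 0.81, 1.11 and 2.02 normalized CPM in MGL KO replicates 1 to 4, from 9 to 36 counts, and at 1.73, 0.29, 0.26 and 0.65 in WT replicates 1 to 4, from 4 to 31 counts. The highest WT library lay above 3 of the 4 MGL KO libraries, and the log2 fold change of 0.73 had a 95% interval from -0.66 to 2.12 (edgeR adjusted p = 0.744). The value was 1.61 without WT replicate 1 and 0.36 without MGL KO replicate 4. These are the same 2 libraries that stood out in B and plasma cell markers, and Cnr2 followed that list within the groups at r = 0.93. An increase of 2-fold in Cnr2 lies inside this interval. Cnr2 also followed the macrophage list (r = 0.87), whose 6 genes had negative log2 fold changes, and its part in the Cnr2 values was not tested.

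**Figure D4:**
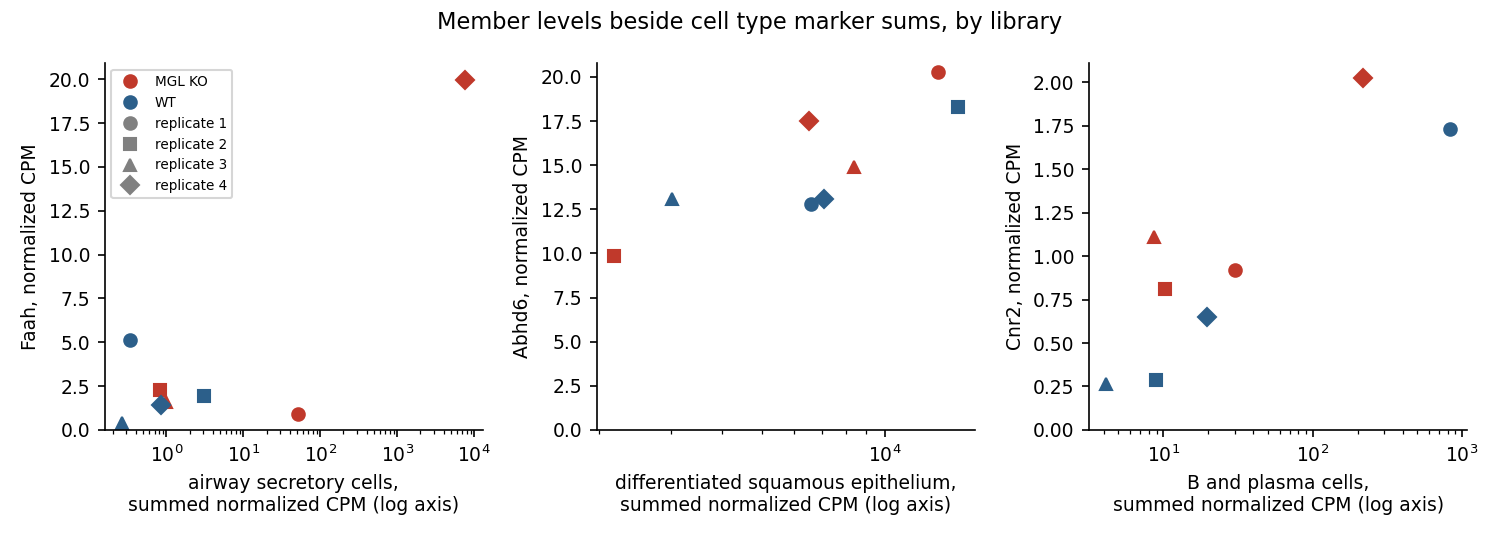
Normalized CPM of Faah, Abhd6 and Cnr2 plotted against the summed normalized CPM (log axis) of airway secretory, differentiated squamous and B and plasma cell markers, respectively, in 4 WT (blue) and 4 MGL KO (red) libraries; shapes are replicate numbers. Faah is highest in MGL KO replicate 4 with 7711 of airway signal, and second highest in WT replicate 1 with 0.33. Abhd6 is lowest where squamous signal is lowest, and Cnr2 is highest in MGL KO replicate 4 and WT replicate 1.

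The tested genes whose within-group deviations were most like those of each gene were named by Pearson's r over the 8 libraries, as a description among 14864 candidates. They were Tmem237 (r = 0.985), Prpf3 and Pex14 for Mgll, Lipg (r = 0.983), Mpzl3 and Mapkapk5 for Abhd6, and Ap2m1 (r = 0.975), Ap2a2 and Snap23 for Abhd12. For the synthesis genes they were Adgrl4 (r = 0.991), Agap1 and Mmrn2 for Dagla, Rcl1 (r = 0.991), Pilrb2 and Nptxr for Daglb, and Adamts5 (r = 0.976), Vps26c and Septin10 for Napepld. Faah was closest to Tmem98 (r = 0.996), Tgtp2 and Tmbim6, Naaa to Prrg4 (r = 0.993), Cxxc4 and Apmap, and Cnr1 to D830039M14Rik (r = 0.979), Tesmin and Pdgfb. Cnr2, with a mean under 1 normalized CPM over the libraries, was left out.

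A further 52 genes of 2-AG and anandamide turnover and signaling were examined, of which 43 passed the count filter. None of the 43 reached an adjusted p under 0.05 with edgeR, nor in any of the other tests run. An unadjusted p under 0.05 was reached by 3 of them, where 8.65% of all tested genes reached it, and the groups did not overlap in 1, where 6.02% of all tested genes did not. The direction was nearly even, with 22 higher and 21 lower in MGL KO and a median log2 fold change of 0.02.

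The phospholipases C, which supply diacylglycerol to the 2-AG synthases, were lower in MGL KO for 9 of 10 genes by sign, and none passed the test, with a median log2 fold change of -0.19. Across all tested genes, 47% were lower. The smallest unadjusted p among them belonged to Plcd4, at 16.3 normalized CPM in WT and 12.1 in MGL KO (log2 fold change -0.43, 95% interval -0.94 to 0.08), and to Plcd1, at 72.2 and 54.1 (log2 fold change -0.42, 95% interval -0.96 to 0.13). Plcd1 was lowest, at 30.05, in MGL KO replicate 2, the library with the least squamous signal.

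Among 9 tested genes of other routes to N-acylethanolamines, 3 were higher and 6 lower. Pla2g4e, a calcium-dependent N-acyltransferase that makes the anandamide precursor, was at 54.9, 24.7, 61.1 and 30.6 normalized CPM in MGL KO replicates 1 to 4 and between 58.3 and 80.4 in WT. A single MGL KO library, replicate 3, reached into the WT range. Its log2 fold change was -0.68 (95% interval -1.31 to -0.06, unadjusted p = 0.035, edgeR adjusted p = 0.55). Gdpd1, a phosphodiesterase acting on lysophospholipid precursors, was at 21.5 normalized CPM in MGL KO replicate 4 and at or below 10.2 in all other libraries, with a log2 fold change of 0.60 (95% interval -0.22 to 1.42).

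Other glycerolipid hydrolases numbered 9, with 6 higher and 3 lower. Abhd2, a hydrolase reported to cleave 2-AG in sperm, was at 68.3, 47.1, 63.3 and 76.2 normalized CPM in MGL KO replicates 1 to 4 and at 49.8, 41.9, 31.9 and 52.5 in WT replicates 1 to 4. All but MGL KO replicate 2 lay above every WT library. The log2 fold change was 0.53 (95% interval 0.11 to 0.96, unadjusted p = 0.0198), and the adjusted p of 0.522 (edgeR) did not pass 0.05. Ddhd2, which acts on diacylglycerol and triglyceride, was between 25.2 and 27.9 in MGL KO and between 29.2 and 33.4 in WT, without overlap, at a log2 fold change of -0.22 (95% interval -0.44 to -0.01) and an adjusted p of 0.57 from the same edgeR test.

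The 3 tested enzymes that acylate or phosphorylate monoacylglycerol and diacylglycerol had log2 fold changes between 0.02 and 0.34, with Dgat2 at 89.8 normalized CPM in MGL KO and 71.1 in WT and Agk at 16.1 and 14.9. The oxygenases that can act on 2-AG and anandamide were low. Ptgs2, which encodes cyclooxygenase-2, was at 2.75 normalized CPM in MGL KO and 1.93 in WT, with a log2 fold change of 0.52 (95% interval -0.58 to 1.61). Alox15 reached 30.1 in MGL KO replicate 4 and at most 9.04 in any other library.

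Among the carriers, Fabp7 was at 4.17 and 2.75 and Fabp3 at 52.8 and 37.7 normalized CPM in MGL KO and WT, respectively, with intervals that include 0. Of other receptors and receptor partners, 5 of 11 passed the count filter. The calcium channel gene Trpv4 was between 12.6 and 25.7 normalized CPM in MGL KO and between 23.2 and 26.4 in WT, with a log2 fold change of -0.45 (95% interval -0.92 to 0.01, unadjusted p = 0.0524, edgeR adjusted p = 0.582). Cnrip1, which encodes a protein that binds the tail of CB1, was at 6.85 in MGL KO and 8.95 in WT, with a log2 fold change of -0.39 (95% interval -0.99 to 0.21).

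**Figure D5:**
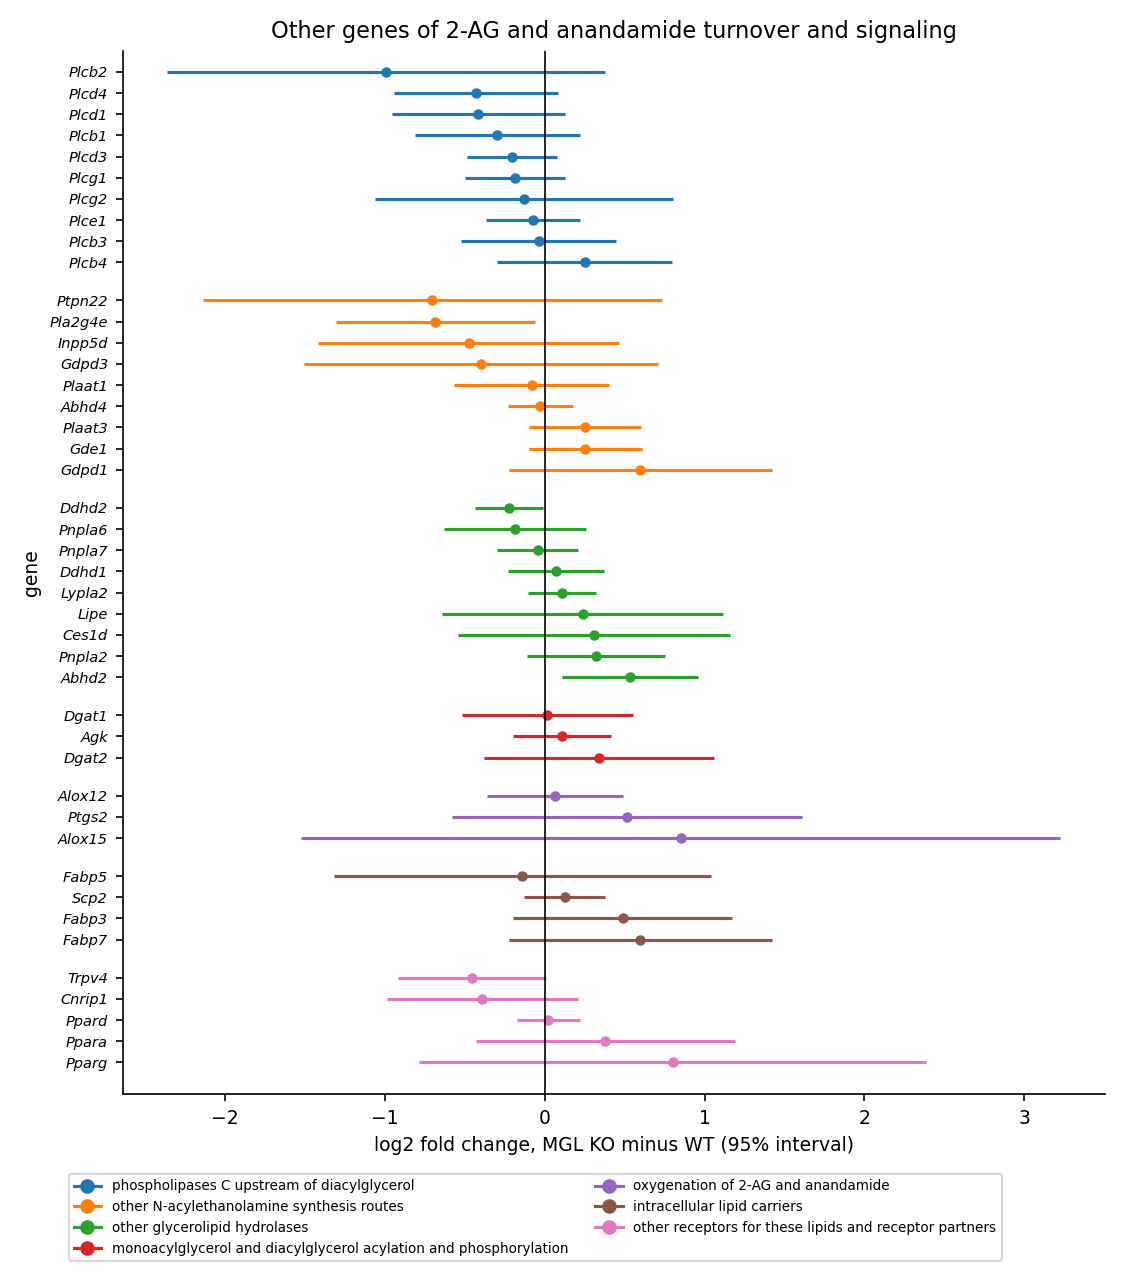
Log2 fold change, MGL KO minus WT, with its 95% interval from edgeR's quasi-likelihood fit, for 43 tested genes of 2-AG and anandamide turnover and signaling, colored by role. The intervals of Pla2g4e, Ddhd2 and Abhd2 do not include 0, and no gene passed an adjusted p of 0.05.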

How the data were processed

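The authors selected poly(A) RNA, checked reads with FastQC 0.11.9, trimmed them with Cutadapt and aligned them to GRCm39 with STAR 2.7.10b. They deposited whole-number read counts per gene symbol and library, without normalization. The counting tool, annotation and use of strand are not given in the sources used here. Libraries were grouped by the labels, and no column of values was left out.

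The 10 genes and all gene lists were chosen with earlier results of these data known. Genes were kept by filterByExpr (minimum count 10), which left 14864 of 22721 symbols with a count. CPM used TMM-scaled library sizes, with factors from 0.82 in MGL KO replicate 2 to 1.11 in MGL KO replicate 4. Within-group correlations were computed on these scaled values only. MGL KO (n = 4) was compared with WT (n = 4) by the quasi-likelihood test of edgeR 4.0.16 in R 4.3.3, with Benjamini-Hochberg adjustment at 0.05. Standard errors were the log2 fold change over the square root of F, and 95% intervals used the test's degrees of freedom. Alternatives were edgeR's exact test, as in the study's methods, DESeq2 1.42.0 and limma-voom (limma 3.58.1) with quality weights, other normalization and filters, a replicate block, tissue covariates and leaving out each library. Within-library sums and ratios were compared by exact permutation. Log2 values used a prior count of 1. Marker sums are over normalized CPM.

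The study counts its replicates as mouse esophagi, but the labels do not tie libraries to mice, so p-values measure the spread between these libraries. No 2 libraries of a group agreed within sampling noise. Positions and lengths came from GENCODE mouse release M39 on GRCm39, where 93.6% of the symbols were found. Promoter stretches were from RefSeq (GRCm38.p6 table), where 8 of the 10 genes matched. The canonical transcript length was chosen after the annotation was seen.

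Genes named were the 10 genes, the called genes and up to 2 with the smallest unadjusted p of each further list, and the 3 genes most like each of the 10 with a mean over 1 CPM. Single marker genes, and pathway genes that did not pass the count filter, were named after their values were seen.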

Additional observations from a re-analysis of the deposited data

Results flagged for a closer look

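Of 96 groups of 4 values examined, 13 had a library far from the other 3. Chance gives about 4.8 for independent groups of normally distributed values. The measures examined share libraries and some share genes, so 4.8 is only a rough guide.

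MGL KO replicate 4 was far above its group in Faah (19.95 normalized CPM, others at most 2.26), Naaa (50.5, others at most 31.6), Alox15 (30.1, others at most 3.95) and the share of Faah in the summed Faah and Naaa per kb (20.2%, others at most 4.88%). In the same library the sums of airway secretory markers (7711, others at most 50.9), B and plasma cell markers (218.4, others at most 30.004) and T cell markers (4.83, others at most 0.81) were high. The part of airway or lymphoid tissue in the Faah and Naaa values was not tested.

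WT replicate 1 was high in B and plasma cell markers (828.3, others of its group at most 19.7) and T cell markers (13.4, others at most 1.77). Faah, Naaa and Cnr2 were also highest of the WT group in this library, at 5.13, 39.8 and 1.73 normalized CPM.

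MGL KO replicate 2 was low in Daglb (19.3 normalized CPM, others at least 29.5). WT replicate 2 was high in Abhd6 (18.3, others at most 13.1) and Gdpd1 (10.2, others at most 6.98). WT replicate 3 was low in basal squamous markers (3874, others at least 5345).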

How the results depend on the processing

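Under all 18 alternatives the count of the 10 genes that differed stayed at 1, Mgll, and that of the further pathway genes at 0. The log2 fold change of Mgll ranged from -2.65 to -2.52. The count over all genes, 7, was 2 without a filter, 65 in the exact test, 137 with DESeq2, 25 in limma-voom, 26 with the skeletal muscle covariate and 2 to 5 with 1 library left out, and the cause was not tested. With the replicate number as a block it was 2, with Mgll among them at an adjusted p of 0.0236 in edgeR's test. Deviations of same-numbered libraries correlated at -0.14, -0.28, -0.14 and 0.08, so libraries share only a number, and the block changed no call among the 10 genes.

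Log2 fold changes of 4 genes, none past the test, changed sign. Daglb was 0.032 in limma-voom. With 1 library left out, Daglb ranged from -0.10 to 0.089 (positive without MGL KO replicate 2 or WT replicate 1), Abhd6 from -0.019 (without MGL KO replicate 1) to 0.30, Faah from -0.51 (without MGL KO replicate 4) to 2.29 and Naaa from -0.038 (without MGL KO replicate 4) to 0.35. Without a change of sign, Abhd12 ranged from -0.24 to -0.02, Dagla from -0.22 to -0.07, Cnr1 from -0.63 to -0.30, Cnr2 from 0.36 to 1.61 and Napepld from 0.21 to 0.36. The difference in the log2 ratio of 2-AG synthesis to Abhd6 and Abhd12 then ranged from -0.11 to 0.047, and that of anandamide synthesis to hydrolysis from -0.15 to 0.36. The Mgll share dropped by 33.8 percentage points, and dropped by 41.0 with exon union lengths, a setting added after the data were seen. Faah and Cnr2 did not reach 10 counts in every library and have no value under that filter.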

Other observations

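Further receptor and enzyme genes did not pass the count filter and are named here after their values were seen. Gpr55, a receptor for lysophosphatidylinositol that also responds to some cannabinoids, was at 8.65 normalized CPM in WT replicate 1, from 155 counts, and at 0.45 in MGL KO replicate 4. It was at or below 0.114 in each of the other libraries. Gpr18 was also highest in those libraries, at 1.90 and 0.79 normalized CPM, the same libraries in which Cnr2 and the B and plasma cell markers were highest. Gpr119 had 0 counts in all 8 libraries, and Trpm8, Trpa1, Mogat2 and Plaat5 had at most 5 counts in any of them. Mogat1 was between 0 and 0.123 normalized CPM in MGL KO and between 0.131 and 0.40 in WT, from at most 7 counts. Trpv1 was highest in WT replicate 1, at 1.34 normalized CPM from 24 counts.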
